A study of Mus musculus with 30 samples.

Results

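miR-31 is 1 of 1079 mouse microRNAs (miRNAs) on a 1-colour array that was hybridised with RNA from heart sections of mice given carbon black or vehicle. It was taken by its name on the array, mmu-miR-31, with all of its 2 probes, and its passenger strand, printed on the array as mmu-miR-31*, was read beside it. The miRNA was chosen by its measured log2 signals on these same arrays, with their results known. Its vehicle day 28 against day 1 difference was among the few that passed a test, so that contrast is given as a description only. The hearts came from female C57BL/6 mice of Taconic, bought at 5 to 6 weeks of age and given 1 instillation into the trachea. Exposed mice received 162 µg Printex 90, a commercial carbon black of nanosized particles, in 40 µl of vehicle followed by 150 µl of air. The vehicle, which the controls received without particles, was 0.9% NaCl in MilliQ water holding 10% acellular lavage fluid from C57BL/6 mice. Hearts were taken 1, 3 or 28 days later and a section with both ventricles gave the RNA of 1 mouse for 1 array. The series text states 6 mice per group, and 29 arrays with signals were analysed here. The vehicle groups of days 1, 3 and 28 held 4, 6 and 4 arrays, and the matching Printex 90 groups held 6, 4 and 5.

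A miRNA is cut from a hairpin precursor, and the guide strand directs the silencing complex to messenger RNAs that pair with its seed, the bases near its 5′ end, while the passenger strand is mostly degraded. miR-31 is known as a miRNA of epithelial cells such as keratinocytes, and in mammals it lies near the Cdkn2a and Mtap genes. Known targets include the HIF inhibitor Hif1an and, in muscle cells, dystrophin and the muscle factor Myf5.

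The sequences show what the array names refer to and which bases would pair with a target. In the RefSeq annotation of the GRCm38.p6 assembly the hairpin lies on the minus strand at chr4:88910557-88910662, and is printed 5′ to 3′ with the guide strand in capitals. The guide strand miR-31-5p lies at chr4:88910614-88910635 and the passenger strand miR-31-3p at chr4:88910577-88910599, each with bases 2 to 8, the seed, in capitals.
mir-31 hairpin: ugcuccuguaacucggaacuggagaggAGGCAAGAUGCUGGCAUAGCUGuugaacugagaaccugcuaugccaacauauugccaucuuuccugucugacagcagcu
miR-31-5p (array name miR-31): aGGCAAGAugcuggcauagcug
miR-31-3p (array name miR-31*): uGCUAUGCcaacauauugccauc
The guide strand is 22 bases and the passenger strand 23 bases of a hairpin of 106. Among 1679 mature mouse miRNAs in the RefSeq table, the seed GGCAAGA occurred in 1, miR-31-5p itself, so that table gave no seed-sharing miRNA to compare with it. Whether the array held a miRNA outside that table with this seed was not checked. A target site for this seed reads UCUUGCC. The long noncoding RNA gene Gm49890 spanned the hairpin in that annotation. The nearest coding genes were Ifne, an interferon gene, on the side of lower coordinates, and Mtap, an enzyme of methionine salvage, on the other.

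miR-31 was measured on every array, but near the dim end of the scale. Probe A_54_P1322 was well above background, by the scanner software's flag on a share of 0.5 or more of its 20 spots, on 29 of 29 arrays. Its mean signal, as deposited, ran from 25.5 to 71.4 intensity units. The second probe, A_54_P1323, ran from 14.7 to 36.5 and was well above background on 20 of 29 arrays. Among vehicle hearts the second probe passed on 1 of 4, 4 of 6 and 4 of 4 arrays of days 1, 3 and 28, and among exposed hearts on 4 of 6, 4 of 4 and 3 of 5. Neither probe fell to the floor of 16.5 scaled units (4.04 on the log2 scale) that replaced dimmer signals.

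Both probes gave much the same picture of which hearts were high and which were low. Over 29 arrays their log2 signals had a Pearson r of 0.85, and 0.77 after each group's mean was taken off, a description over arrays that share slide and scaling. The spots of probe A_54_P1322 varied with a median coefficient of variation of 9.94% within an array, against 16.5% for the other probe, which gave median standard errors of 0.033 and 0.052 on the log2 scale. Arrays of the same group, each from another mouse, had a pooled SD of 0.18 for probe A_54_P1322 and 0.17 for the other, wider than these standard errors of an array's value.

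**Figure D1:**
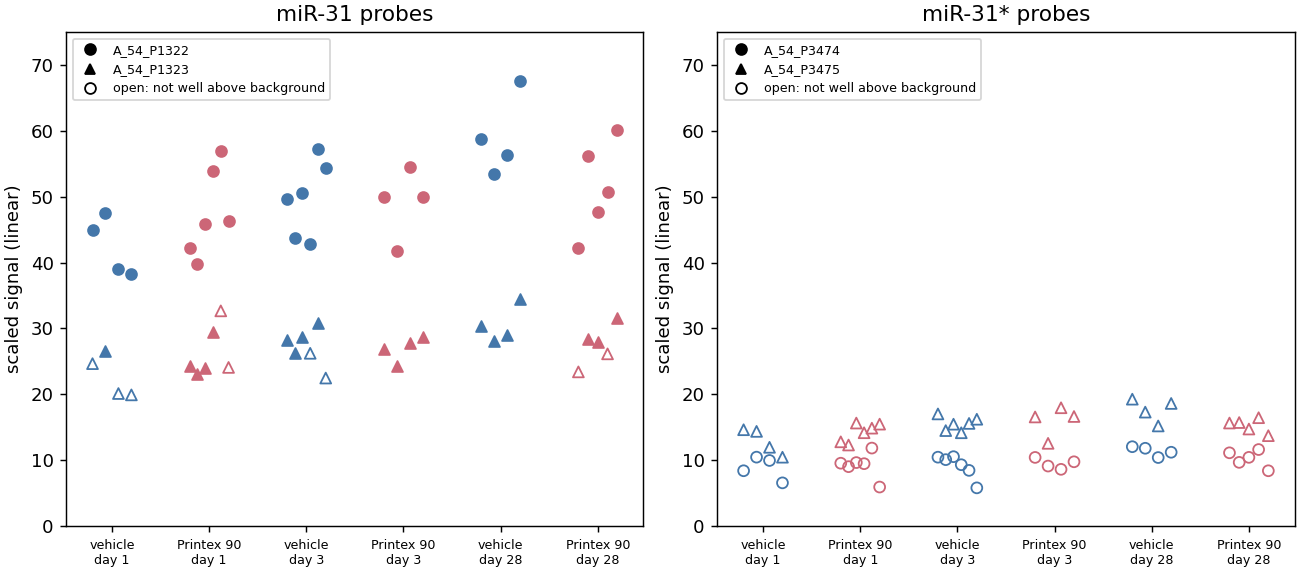
Scaled signal (linear, vertical axis) of the probes for miR-31 (left) and miR-31* (right), 1 point per array, by group (vehicle blue, Printex 90 red); open symbols mark arrays where the probe was not well above background. A_54_P1322 is filled on all 29 arrays, A_54_P1323 on 20 of 29, and both miR-31* probes are open on every array.

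The level of miR-31 is the mean log2 signal of both probes after scaling. Among vehicle hearts on day 1 the 4 arrays read 5.06, 5.15, 4.81 and 4.79, a mean of 4.95 ± 0.18 (SD, n = 4). The 6 Printex 90 arrays of day 1 ran from 4.92 through a median of 5.06 to 5.43, a mean of 5.13 ± 0.20 (SD, n = 6). Replicates 3 and 4 of the vehicle group lay below every exposed heart of that day, and the other vehicle hearts lay inside the exposed range.

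On day 3 the 6 vehicle arrays ran from 5.07 through a median of 5.18 to 5.39, a mean of 5.19 ± 0.12 (SD, n = 6). The 4 Printex 90 arrays with signals read 5.19, 4.99, 5.28 and 5.24, a mean of 5.18 ± 0.13 (SD, n = 4). Exposed replicate 2 was the lowest heart of that day, and the other exposed hearts lay inside the vehicle range.

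On day 28 the 4 vehicle arrays read 5.40, 5.28, 5.34 and 5.59, a mean of 5.40 ± 0.14 (SD, n = 4). The 5 Printex 90 arrays read 4.97, 5.32, 5.19, 5.19 and 5.45, a mean of 5.22 ± 0.18 (SD, n = 5). Exposed replicates 1, 3 and 4 were below every vehicle heart of that day, while replicates 2 and 5 lay inside the vehicle range.

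Ordered by mean level, miR-31 stood from lowest to highest in vehicle day 1, Printex 90 day 1, Printex 90 day 3, vehicle day 3, Printex 90 day 28 and vehicle day 28. The steps between neighbours in that order were 0.18, 0.047, 0.014, 0.032 and 0.18 on the log2 scale, and every neighbouring pair overlapped in its arrays. Of 15 pairs of groups only 1 did not overlap, vehicle day 1 and vehicle day 28. That pair is the contrast on which miR-31 was chosen, so its separation is not read as a result. How many other tested miRNAs separate in that pair was not counted. The spread of miR-31 within groups (residual SD 0.16) was below the median of 0.27 over the 306 tested miRNAs, of which 30.4% had a lower one.

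**Figure D2:**
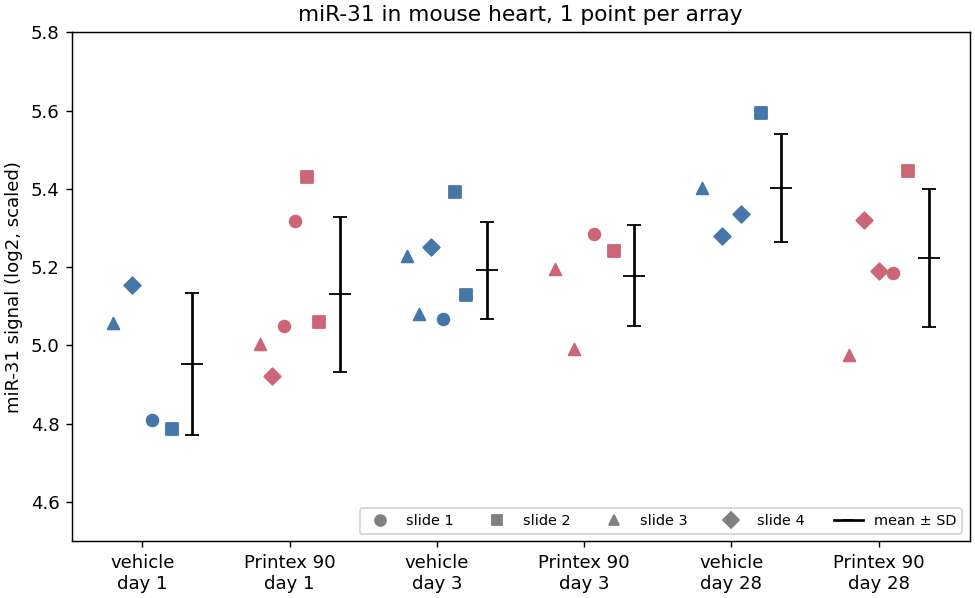
Log2 scaled signal of miR-31 (vertical axis), 1 point per array, by group (vehicle blue, Printex 90 red), with the slide as the symbol and the group mean ± SD as the black bar. Vehicle means run from 4.95 on day 1 to 5.40 on day 28, and Printex 90 means from 5.13 to 5.22. Only vehicle day 1 and vehicle day 28, the contrast on which miR-31 was chosen, do not overlap.

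The series was set up to ask whether particles in the lung change miRNAs in the heart, and for miR-31 no day gave a difference that passed the test. On day 1 exposed hearts were 0.18 ± 0.11 (SE) higher on the log2 scale, a 1.13-fold difference with a 95% interval from 0.972 to 1.32, and 5 of 6 exposed arrays lay above the vehicle mean (adjusted p = 0.742, limma over 306 miRNAs). On day 3 the difference was −0.014 ± 0.11, with an interval from −0.23 to 0.21 (adjusted p = 0.999), and 3 of 4 exposed arrays lay above the vehicle mean. On day 28 exposed hearts read −0.18 ± 0.11 against vehicle, with an interval from −0.41 to 0.050 (adjusted p = 0.906), and 4 of 5 exposed arrays lay below the vehicle mean. These intervals hold the differences that the arrays leave possible, so a difference of such a size is not excluded.

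Averaged over the 3 days, the exposure difference of miR-31 was −0.0046 ± 0.062, with an interval from −0.13 to 0.12 (adjusted p = 0.994, limma). In each of these 4 comparisons limma called 0 of 306 miRNAs at an adjusted p of 0.05 (0%), while an unadjusted p under 0.05 was reached by 2 miRNAs on day 1, 1 on day 3, 1 on day 28 and 0 for the mean. The median difference over all tested miRNAs was −0.066, 0.031 and 0.014 on days 1, 3 and 28. In a section of whole tissue, fewer cells that hold miR-31 and less miR-31 per cell cannot be told apart.

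The exposure differences of day 1 and day 28 had opposite signs. Both use vehicle groups of the contrast on which miR-31 was chosen, so the choice itself favoured such signs. Day 28 minus day 1 gave −0.36 on the log2 scale. It contains the vehicle day 28 minus day 1 difference, so it is given as a description only, without a test of miR-31. In that contrast limma called 0% of 306 miRNAs, and 3 had an unadjusted p under 0.05. Day 3 minus day 1 gave −0.19 ± 0.15 (adjusted p = 0.735, limma) and day 28 minus day 3 gave −0.17 ± 0.15 (adjusted p = 0.982), again with 0% called. These differences use the same vehicle arrays as the comparisons of days below.

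Across days, the widest difference of miR-31 was that of vehicle hearts between days 28 and 1, the contrast on which it was chosen. From day 1 to day 28 the mean level was 0.45 higher on the log2 scale, or 1.37-fold, and 4 of 4 day 28 arrays lay above every day 1 array. miR-31 was 1 of 6 miRNAs called in that contrast (1.96% of 306, 5 higher and 1 lower, against a median of −0.048 over all tested), and since it was picked with that result known nothing is read from the call. The call ended when vehicle day 28 replicate 1, 3 or 4 was left out (differences of 0.45, 0.47 and 0.39), and likewise without vehicle day 1 replicate 3 or 4 (0.40 each).

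The shorter steps in vehicle hearts, which together make up that contrast, did not pass. Day 3 was 0.24 ± 0.11 above day 1 (adjusted p = 0.439, limma), with 6 of 6 day 3 arrays above the day 1 mean, in a comparison where 0% of 306 miRNAs were called and 18 had an unadjusted p under 0.05. Day 28 was 0.21 ± 0.11 above day 3 (adjusted p = 0.761), with 4 of 4 day 28 arrays above the day 3 mean, where 2 miRNAs were called (0.654%). Both steps share arrays with the longer comparison and are no separate evidence for it.

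In exposed hearts no difference of miR-31 between days passed. Their smaller size beside vehicle hearts is not read as a result, since miR-31 was chosen on the vehicle contrast. Day 28 minus day 1 was 0.093 ± 0.10, with an interval from −0.11 to 0.30 (adjusted p = 0.657, limma), where the median over all tested miRNAs was 0.098 and 4 were called (1.31%). Day 3 minus day 1 was 0.047 ± 0.11 (adjusted p = 0.998, 0% called) and day 28 minus day 3 was 0.045 ± 0.11 (adjusted p = 0.915, 0.327% called). The vehicle and the exposed difference are set against each other by the exposure difference between days 28 and 1, given above as a description only.

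The arrays lay on 4 slides, and the miR-31 differences were not alike on all of them. On day 1 the exposure difference was 0.37 and 0.46 on slides 1 and 2 but −0.056 and −0.23 on slides 3 and 4, so its direction did not hold within slides. By scan date, slides 1 and 2 belonged to scan 2 and slides 3 and 4 to scan 1, so this split followed scan as well as slide. On day 3 the slides gave 0.22 on slide 1, −0.019 on slide 2 and −0.062 on slide 3. On day 28 it was below 0 on every slide with both groups, at −0.15, −0.43 and −0.051 on slides 2, 3 and 4. The vehicle day 28 minus day 1 difference was above 0 on each such slide, at 0.81, 0.34 and 0.15, each resting on few arrays per group. Since miR-31 was chosen on that contrast, its common sign over slides is no support. The mean exposure difference could be formed on slides 2 and 3, at 0.097 and −0.18. With slide as a fixed block the vehicle difference was 0.449, and the correlation between arrays of a slide was 0.136 when slide was a random block. With scan as a fixed block the day 1 exposure difference was 0.164 and the vehicle difference 0.472.

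**Figure D3:**
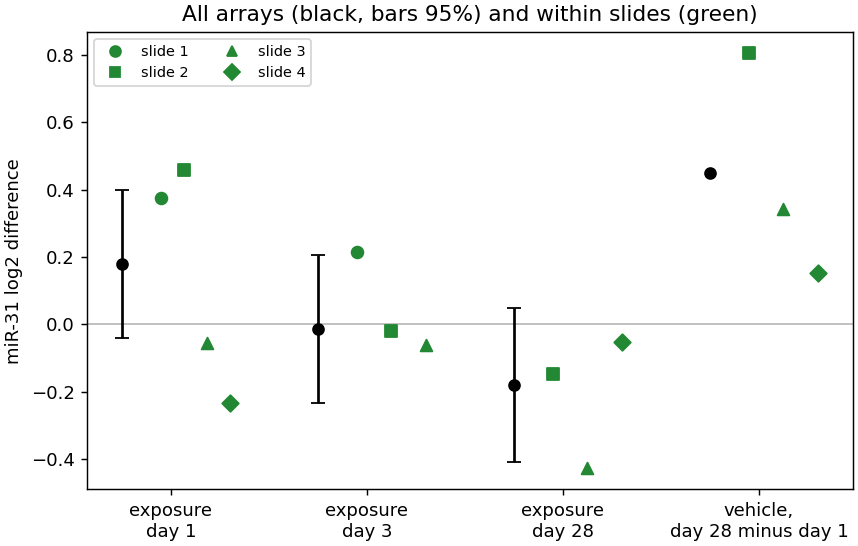
Log2 difference of miR-31 (vertical axis) over all arrays (black, with a 95% interval for exposure) and within each slide that held both groups (green, slide as the symbol), for exposure on each day and for vehicle day 28 minus day 1. The day 1 slides lie on both sides of 0, from −0.23 to 0.46, while the day 28 and vehicle slides each keep 1 sign. The vehicle difference is the contrast on which miR-31 was chosen, so its sign is no support.

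The passenger strand miR-31* was not well above background on any array (0 of 29 for each of its 2 probes), so no fold is given for it. Its probe A_54_P3475 had mean scaled signals of 12.8 ± 2.0, 15.5 ± 1.06 and 17.6 ± 1.80 (SD, n = 4, 6 and 4) in vehicle hearts on days 1, 3 and 28. In exposed hearts the same probe read 14.2 ± 1.40, 15.9 ± 2.34 and 15.2 ± 1.05 (SD, n = 6, 4 and 5). On 22 of 29 arrays this probe lay under the floor, and the other probe on 29 of 29. Values under the floor have no order, so these group means, which rest mostly on such values, are not compared. The software's total gene signal for miR-31* exceeded its minimum of 0.1 on 13 of 29 arrays. By group these were 1 of 4, 3 of 6 and 4 of 4 vehicle hearts and 2 of 6, 3 of 4 and 0 of 5 exposed hearts of days 1, 3 and 28. With both probes undetected, these counts are not read as a result about miR-31*. The matching share over other undetected miRNAs was not counted. The total gene signal for miR-31 exceeded the minimum on 29 of 29.

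The deposited series value table, which also holds a value for the exposed heart of day 3 without scanner signals, gave the guide strand in a compressed range. Its vehicle means for miR-31 were 6.39 ± 0.049, 6.57 ± 0.10 and 6.63 ± 0.10 on the log2 scale on days 1, 3 and 28 (SD, n = 4, 6 and 4). The exposed means were 6.50 ± 0.18, 6.52 ± 0.062 and 6.49 ± 0.11 (SD, n = 6, 5 and 5), and the additional heart read 6.46. Vehicle day 1 was lowest and vehicle day 28 highest in mean, and they differed by 0.24. The values come from the same hearts, and the contrast is the one on which miR-31 was chosen, so this order is no separate evidence.

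The size of the miR-31 differences depended on the processing. Without scaling the vehicle difference was 0.28, with normexp background correction 0.26, and with the 75th percentile taken over all probes 0.63. That last scaling also moved the median of all tested miRNAs in this contrast from −0.048 to 0.13, and leaving out the scaling moved it to −0.21. The exposure difference kept its sign on day 1 (0.019 to 0.35) and on day 28 (−0.35 to −0.030) under the 17 alternatives, and took both signs on day 3 (−0.10 to 0.10).

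**Figure D4:**
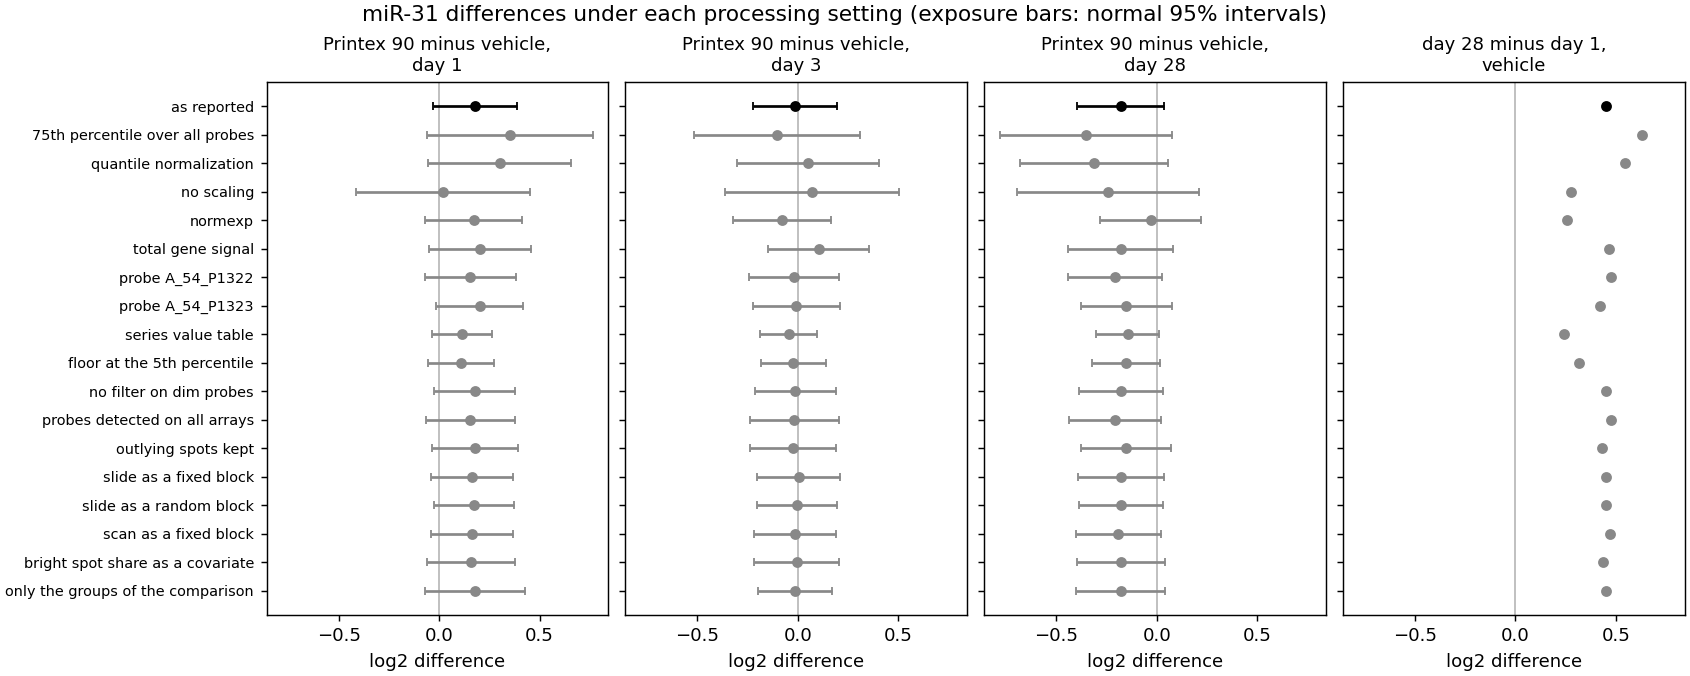
Log2 difference of miR-31 (horizontal axis) as reported (black) and under each other processing choice (grey), for exposure on days 1, 3 and 28 and for vehicle day 28 minus day 1, with bars for normal 95% intervals of the exposure differences. Every vehicle point, of the contrast on which miR-31 was chosen, lies above 0, between 0.24 and 0.63. The day 3 points lie between −0.10 and 0.10.

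The tissue label was checked against markers of the cells a heart section can hold. The 6 heart muscle miRNAs were all tested, and miR-1a, an abundant miRNA of striated muscle, was detected on 29 of 29 arrays with a mean log2 signal of 15.97 ± 0.15 (SD, n = 4) in vehicle hearts of day 1. Of 11 epithelial miRNAs, among them miR-200b and miR-205, 0 were well above background on any array, so miR-31 was measured here in sections whose epithelial markers were not detected. Skeletal muscle miR-206 was detected on 17 arrays, with group means between 4.48 and 4.88 on the log2 scale, near the floor of 4.04. Whether the sections held skeletal muscle was not tested.

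Red cell miRNAs also stood at different mean levels in the groups. The 3 of 4 listed red cell miRNAs on the array (miR-451, miR-144 and miR-144*; the other, miR-486, was not on it under that name) had a mean log2 level between 9.43 and 10.03 in vehicle hearts and between 9.66 and 10.82 in exposed hearts on day 1. On day 3 it ran from 9.82 to 10.81 in vehicle and from 9.75 to 10.89 in exposed hearts, and on day 28 from 9.37 to 9.58 and from 9.50 to 10.55. Vehicle and exposed ranges overlapped on each day, while all vehicle hearts of day 28 lay below all hearts of day 3 and all exposed hearts of day 1. The list's median exposure differences were 0.47, −0.18 and 0.42 on days 1, 3 and 28, with the sign of miR-31 on days 1 and 3 and the opposite sign on day 28. From vehicle day 1 to day 28 the list's median difference was −0.28, the opposite sign to miR-31. The part of red cells in the miR-31 values was not tested.

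Fibroblast and vessel wall miRNAs correlated positively with miR-31 from heart to heart. How far heart muscle, leukocyte and endothelial miRNAs lay from them depended on the scaling. After group means were taken off, the 5 fibroblast miRNAs had r between 0.44 and 0.60 with miR-31 over 29 arrays, and the 2 vessel wall miRNAs measured, miR-143 and miR-145, had 0.42 and 0.44, while miR-143* and miR-145* were not well above background on any array. The 3 red cell miRNAs had r between 0.21 and 0.26, and between 0.59 and 0.60 without scaling. The 6 heart muscle miRNAs had r between −0.44 and 0.12, the 4 leukocyte miRNAs between −0.43 and 0.17, and the 3 tested endothelial miRNAs between −0.39 and 0.031 (miR-222, the other, was detected on 3 arrays). Over all 305 other tested miRNAs the median r was −0.034, with 0.51 at the 95th percentile and −0.34 at the 5th. With the 75th percentile over all probes, r ran from 0.50 to 0.81 for heart muscle and from 0.75 to 0.85 for fibroblast miRNAs, and without scaling from 0.62 to 0.82 and from 0.81 to 0.85. With quantile normalization it ran from −0.62 to 0.40 for heart muscle and from 0.17 to 0.73 for fibroblast miRNAs. Leukocyte miRNAs had r from 0.27 to 0.55 with quantile normalization, and from 0.39 to 0.80 with the 75th percentile over all probes. Endothelial miRNAs had r from −0.15 to 0.47 and from 0.0078 to 0.83 under the same 2 settings. The median r with quantile normalization was 0.42 for leukocyte and 0.27 for fibroblast miRNAs.

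In vehicle hearts the mean log2 level of the fibroblast list ran from 8.54 to 8.62 on day 1 and from 8.45 to 9.08 on day 28, and its median difference was 0.14. Of the 5 fibroblast miRNAs, the 4 named miR-199 or miR-214 had a higher mean on day 28, and miR-21 had a slightly lower one (−0.021). Those 4 are not taken as separate markers. The heart muscle list ran from 11.62 to 11.79 and from 11.50 to 11.64, with a median difference of 0.090 across its members. Of its 6 members, 5 had a higher mean on day 28 and miR-208b, a myosin gene miRNA that read 5.34 on day 1 and 4.06, near the floor, on day 28, had a lower one, so the list's mean and median differ in sign. The median exposure differences of the fibroblast list were 0.045, −0.056 and −0.094 on days 1, 3 and 28. The part of fibroblasts in the miR-31 values was not tested.

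The miRNAs whose pattern was most like that of miR-31 were ranked by the same correlation of deviations from group means. Highest was miR-324-5p with r = 0.63 (0.51 with group means left in), which was detected on 16 arrays. Next came miR-199a-3p, a fibroblast miRNA, with 0.60 (0.54), and miR-136 with 0.58 (0.35). miR-103, from introns of pantothenate kinase genes, and miR-127, which like miR-136 lies in the imprinted Dlk1-Dio3 region, also reached 0.58 (0.31 and 0.39).

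At the other end stood miR-139-3p at −0.44, miR-499, carried by a heart myosin gene, at −0.44, and miR-150, a lymphocyte miRNA, at −0.43. These likenesses depended on the scaling. Without scaling the 3 lowest all turned positive, to r = 0.72 for miR-150, 0.62 for miR-499 and 0.49 for miR-139-3p. With quantile normalization miR-150 and miR-139-3p had 0.27 each and miR-499 had −0.62. Among the highest, miR-199a-3p had 0.82 without scaling and 0.27 with quantile normalization, and miR-324-5p had 0.89 and 0.82.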

How the data were processed

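The deposited scanner files, written by Feature Extraction 10.7.3.1 per the file headers, hold background-subtracted, detrended intensity per spot with flags. The deposited series value table holds log2 values per miRNA on a scale whose centring is not stated, and served as an alternative. One Printex 90 file of day 3 (replicate 3) lists names without signals, so 29 arrays entered the fit in place of the planned 30. Intensities were averaged over each probe's spots without outlying spots, scaled on the 75th percentile of 418 probes detected on all arrays, floored and taken to log2. Probes detected on 4 or more arrays of any group were averaged per miRNA, giving 306 miRNAs from 621 probes. The arrays held 45440 spots, of which 18.4% to 27.5% per array were well above background, 0 were saturated and 2.85% to 9.32% were outlying. The 75th percentile differed 2.34-fold between arrays before scaling, and precision is limited by how many arrays there were. limma 3.58.1 (R 4.3.3) fitted 1 mean per group, with two-sided contrasts and Benjamini-Hochberg adjustment over all 306 miRNAs at a threshold of 0.05. The fit was tested on simulated data. miR-31, the marker lists and the tests were chosen with earlier results of these data known. The named miRNAs are miR-31, miR-31*, the 5 miRNAs with the highest and the 3 with the lowest correlation with miR-31, and list members. Alternatives covered scaling, background correction (normexp, offset 50, on median pixel signal, as the files hold no mean signal), signal summary, probes, floor, filters, slide and each left-out array. Scan as a block was added after seeing the data.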

Additional observations from a re-analysis of the deposited data

How the results depend on the processing

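No paired analysis was possible because the labels give no replicate numbers that groups share. The vehicle day 28 minus day 1 difference of miR-31 (0.45) belongs to the contrast on which it was chosen. Its calls are therefore no support, and missed calls are listed only as a record of the processing. The difference ran from 0.24 to 0.63 over 17 alternatives. It missed the threshold with no scaling (0.28), normexp (0.26), quantile normalization (0.55), a 75th percentile taken over all probes (0.63), the total gene signal (0.46), the series value table (0.24), probe A_54_P1323 (0.42), a 5th percentile floor (0.32), outlying spots kept (0.43), the share of bright spots as a covariate (0.44) and a fit of those groups alone (0.45, fewer samples). Leaving out 1 array gave 0.39 to 0.52. The number of miRNAs called in that contrast was 6, between 0 and 7 under the alternatives and between 3 and 8 without 1 array; for vehicle day 28 minus day 3 it was 2 (0 to 5 and 1 to 5), for Printex 90 day 28 minus day 3 it was 1 (0 to 3 and 1 to 2) and for Printex 90 day 28 minus day 1 it was 4 (0 to 6 and 1 to 4).

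No other miR-31 difference passed under any alternative, and the following signs turned; the cause was not tested. For exposure on day 3 the value was 0.051 with quantile normalization, 0.072 without scaling, 0.10 with the total gene signal and 0.0044 with slide as a fixed block. For the mean of the days it was 0.014 with quantile normalization, 0.021 with normexp, 0.042 with the total gene signal, 0.014 with probe A_54_P1323 and 0.00055 with outlying spots kept. For Printex 90 day 28 minus day 3 it was −0.17 with the 75th percentile over all probes, −0.15 with quantile normalization, −0.080 without scaling and −0.033 in the series value table. For Printex 90 day 28 minus day 1 it was −0.075 with the 75th percentile over all probes, −0.065 with quantile normalization and −0.016 in the series value table. Printex 90 day 3 minus day 1 was −0.032 with normexp. The exposure difference of day 3 minus day 1 was 0.053 without scaling, and that of day 28 minus day 3 was 0.049 with normexp. Left-out arrays gave −0.049 to 0.048 for exposure on day 3, −0.025 to 0.018 for the mean of the days and −0.017 to 0.11 for Printex 90 day 28 minus day 3.

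Within slides, values lay away from the pooled ones by more than 1 SD for exposure on day 1 (0.37, 0.46, −0.056 and −0.23 on slides 1 to 4), on day 3 (0.22 on slide 1), on day 28 (−0.43 on slide 3) and for the mean of the days (−0.18 on slide 3). The same held for vehicle day 3 minus day 1 (0.47 on slide 2), vehicle day 28 minus day 1 (0.81 on slide 2 and 0.15 on slide 4), Printex 90 day 28 minus day 3 (−0.12 on slide 3) and Printex 90 day 28 minus day 1 (0.33 on slide 4). It held too for the exposure differences of day 3 minus day 1 (−0.48 and −0.0059 on slides 2 and 3), day 28 minus day 3 (−0.37 on slide 3) and day 28 minus day 1 (−0.61 and 0.18 on slides 2 and 4). The second miR-31 probe lay near background, and no value below the scaled floor can be compared.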
